A study of Homo sapiens with 102 samples.

Results

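The values below cover 18 position codes of the synthetic centromere unit (CenU), T065 to T071 and T073 to T083, out of 128 CenU codes and 512 codes in all. A position code is a tag of 23 nucleotides built into each synthetic alphoid repeat unit, so that a read can be assigned to a code within an otherwise repetitive array. The paper found that a HAC can hold several copies of a code, in different clusters. The value of a code may thus average over copies in different places. The codes were chosen by their reads in 2 human artificial chromosomes (HACs) and by the ratio of CENP-A to mark reads, lower on T065 to T069 than on T070 to T083, with results of these data known. The read shares and that step are therefore descriptions, given with no test. The libraries came from HT1080, an established human fibrosarcoma cell line, carrying either HAC 1-20 or HAC 4-65, and each HAC line was 1 clone. Both HACs contained CenU, with CENP-B boxes and tetracycline operators, and the non-centromere unit (NCU), with lactose operators and altered boxes. Each line gave 49 libraries, 1 for each of 7 antibodies (CENP-A, H3K4me2, H3K14ac, H4K8ac, H4K20me1, H3K36me2 and H3K9me3) in each of 7 conditions. The conditions were thymidine, colcemid, 3 hours after colcemid release, siKAT7, siHJURP, siControl and untreated cells. DNA from 3 immunoprecipitations was pooled into each library, so no group had a replicate and no difference between groups was tested.

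CENP-A replaces histone H3 in nucleosomes of active centromeres, where the chaperone HJURP deposits it. The CENP-B box is the binding site of CENP-B, a protein that promotes de novo centromere formation on alphoid DNA. H4K20me1 is known from CENP-A chromatin, H3K9me3 marks heterochromatin, and the remaining marks are typical of open or transcribed chromatin. KAT7 is an acetyltransferase of histone H3 and also of histone H4, including H4K8ac.

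All codes share 17 of their 23 bases and differ at 6 positions, counted from the 5′ end: 9, 10, 14, 15, 19 and 20. The codes on which the results turn are printed 5′ to 3′ with these 6 positions in capitals. T065 to T067 were the CENP-A poor codes of HAC 1-20, T069 and T079 bounded the run of codes above the median density in untreated cells of both lines, T071, T075 and T078 lay inside that run, and T080 to T083 were CENP-A dense in HAC 1-20 and poor in HAC 4-65.
T065: ggggaaaaTAcccAAtttAAggg
T066: ggggaaaaTAcccATtttATggg
T067: ggggaaaaTAcccAGtttAGggg
T069: ggggaaaaTAcccTAtttTAggg
T071: ggggaaaaTAcccTGtttTGggg
T075: ggggaaaaTAcccGGtttGGggg
T078: ggggaaaaTAcccCTtttCTggg
T079: ggggaaaaTAcccCGtttCGggg
T080: ggggaaaaTAcccCCtttCCggg
T081: ggggaaaaTTcccAAtttAAggg
T082: ggggaaaaTTcccATtttATggg
T083: ggggaaaaTTcccAGtttAGggg
T065 differed from T081 only by A10T, and the same A10T separated T066 from T082 and T067 from T083, so CENP-A poor and CENP-A dense codes of HAC 1-20 lay a single base apart. Every one of the 18 codes had 4 CenU codes at a distance of 1 base. Across the carried codes the number of G and C among the 6 variable bases had a Pearson r with CENP-A density, defined below, of 0.39 in HAC 1-20 (17 codes) and 0.37 in HAC 4-65 (15 codes). Those points share the same 7 libraries within a line.

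Libraries held between 1494 and 1212786 matched reads (median 345389), and 6 of them stayed below 10000. The shallow CENP-A libraries were siKAT7 in HAC 1-20 with 4611 reads, and thymidine (3071), siHJURP (6009) and siControl (1494) in HAC 4-65. Untreated HAC 1-20 cells gave only 342 H3K9me3 reads on the carried codes among the 18, and their H3K36me2 library held 5154 matched reads. CenU reads on codes that the line did not carry, as defined below, were 1.00% in the median library. In untreated HAC 1-20 cells they were 16.4% for H3K14ac, 6.76% for H4K8ac, 6.04% for H3K4me2 and 5.13% for H3K9me3. They were 4.01% for H4K20me1, 2.08% for H3K36me2 and 1.35% for CENP-A. The untreated densities of HAC 1-20 rest on these libraries. Log2 reads of the carried codes scattered around each code's mean over 7 conditions with an SD of 0.40 in the median library. In 5 libraries this SD was above 1.5: H3K4me2, H4K8ac and H4K20me1 of released HAC 4-65 cells, H3K14ac of siHJURP HAC 4-65 cells and H3K14ac of released HAC 1-20 cells. Where the text says without the scattered libraries, these marks were left out of the density of that condition, and spans of single marks were taken over the conditions in which no library of the line scattered. Bounds in parentheses, parted by a comma, are 95% intervals. They cover counting error only, since amplified reads are not independent molecules.

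The 18 codes were not all present in both HACs. A code was taken as carried where its median over the 49 libraries of a line reached 0.1% of CenU reads. By this measure HAC 1-20 carried 61 CenU codes and HAC 4-65 carried 75, including 17 and 15 of the 18. T068 had a median share of 0.0534% in HAC 1-20 and 0.0687% in HAC 4-65, below the minimum in each. T066 and T067 had medians of 2.60% and 2.20% in HAC 1-20, against 0.0544% and 0.0430% in HAC 4-65. These low shares were close to those of T072, which was left out by the rule and had 0.0605% in HAC 1-20 and 0.0598% in HAC 4-65. Cross-matching between codes 1 base apart was not tested: summed over the 49 libraries of HAC 4-65, T066 reads were 2.29% of T082 reads and T067 reads were 1.66% of T083 reads. The 15 codes carried by both lines were T065, T069 to T071 and T073 to T083, and 12 further CenU codes were shared.

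CENP-A density was low at the low end of the run in both HACs, and codes are called CENP-A dense or poor by this value throughout. CENP-A density is the log2 of CENP-A reads plus 0.5 minus the mean log2 of reads plus 0.5 over the 6 marks, centred so that 0 is the median of the carried CenU codes of that line and condition; a difference of 1 is 2-fold. Each library pools many cells, so fewer HACs with CENP-A on a unit and less CENP-A per unit cannot be told apart. No input DNA entered this value, so the marks stand in for copy number, and a code rich in several marks has a lower density by construction. In untreated cells the mean density of T070 to T083 (13 codes) minus that of T065 to T069 (5 codes) was 3.07 in HAC 1-20 (2.88, 3.26), an 8.40-fold step, and 1.50 in HAC 4-65 (1.32, 1.68), a 2.83-fold step. With carried codes alone the steps were 3.11 (2.98, 3.25) in HAC 1-20 and 0.78 (0.72, 0.84) in HAC 4-65, where only T065 and T069 remained below the boundary. Of the carried codes, 14 of 17 in HAC 1-20 and 10 of 15 in HAC 4-65 lay above the median, beside 49.2% and 49.3% of all carried CenU codes, and nothing is read from these counts because the choice of codes used the same ratio. The median density of the carried codes among the 18 was 0.66 in HAC 1-20 and 0.80 in HAC 4-65, against -0.40 over the 44 other carried codes of HAC 1-20 and -0.20 over the 60 others of HAC 4-65.

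The boundary did not fall between T069 and T070. T069 had a density of 0.07 (-0.18, 0.31) in HAC 1-20 and 0.57 (0.49, 0.65) in HAC 4-65, and it was above the median in 4 of 7 conditions of HAC 1-20, or 3 of 7 without the scattered libraries, and in 7 of 7 of HAC 4-65. T065 had -3.49 (-3.77, -3.21) in HAC 1-20 and -1.17 (-1.25, -1.10) in HAC 4-65. T066 and T067, carried by HAC 1-20 alone, had -2.96 (-3.19, -2.73) and -2.65 (-2.84, -2.46). T065, T066 and T067 were thus the poorest of the 17 codes in HAC 1-20, and none of them passed the median in any condition of that line. The step between neighbours T069 and T067 in HAC 1-20 was 2.72 (2.41, 3.02) in untreated cells and spanned 1.77 to 2.72 over the 7 conditions. The step between T069 and T065 in HAC 4-65 was 1.74 (1.63, 1.85) and spanned 0.65 to 2.54. Without the scattered libraries the span in HAC 4-65 was 0.82 to 2.54, with released cells at 1.94 in place of 0.65 and siHJURP cells at 0.82 in place of 1.79, and that of HAC 1-20 was again 1.77 to 2.72. Counted with the dense side, T069 to T083 exceeded the carried codes below T068 by 3.83 (3.68, 3.98) in HAC 1-20 and by 1.66 (1.58, 1.73) in HAC 4-65, the second value resting on T065 alone. With and without the scattered libraries this step was 3.58 and 3.69 in released HAC 1-20 cells, 0.96 and 1.49 in released HAC 4-65 cells, and 1.67 and 1.01 in siHJURP HAC 4-65 cells. In CENP-A reads alone, T065 held 1.32% and T069 1.31% of CenU reads in untreated HAC 4-65 cells, against 0.222% and 0.802% in HAC 1-20. Medians over the 7 conditions of HAC 4-65 were 1.58% and 1.61%. The untreated step from T065 to T069 in HAC 4-65 thus came from the marks, with mean shares of 3.13% and 0.94%.

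The other end of the run took opposite states in the 2 HACs. T080 to T083 were CENP-A dense in HAC 1-20 and CENP-A poor in HAC 4-65. T080 had a density of 1.31 (1.03, 1.60) in HAC 1-20 and -1.49 (-1.61, -1.37) in HAC 4-65. T081 had 1.14 (0.81, 1.46) in HAC 1-20 and -1.89 (-2.0, -1.77) in HAC 4-65. The differences between lines were 2.80 (2.50, 3.11) for T080 and 3.02 (2.68, 3.36) for T081, in codes singled out for them and between lines of 1 clone each, so they are descriptions. T082 had 0.64 (0.39, 0.88) in HAC 1-20 and -1.26 (-1.34, -1.17) in HAC 4-65. T083 had 0.66 (0.47, 0.85) in HAC 1-20 and -0.71 (-0.77, -0.66) in HAC 4-65. In CENP-A reads alone T083 was not low in untreated HAC 4-65 cells, with 2.28% of CenU reads beside 1.31% for T069. Its mean share over the 6 marks was 3.96% there. Over 7 conditions its median CENP-A share was 1.27%, beside 1.61% for T069. Each of the 4 codes was higher in HAC 1-20 in 7 of 7 conditions, with or without the scattered libraries.

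The contrast held across conditions. This block of 4 codes was drawn after the values had been seen. Set against T069 to T076 (7 codes) of the same line, T080 to T083 were higher by 0.29 (0.14, 0.45) in untreated HAC 1-20 cells and lower, at -2.77 (-2.83, -2.72), in untreated HAC 4-65 cells, a 6.83-fold deficit. In CENP-A reads alone, without the marks as a stand-in for copy number, the same contrast was 0.04 in HAC 1-20 and -1.45 in HAC 4-65. The size thus depended on the stand-in, and in HAC 1-20 little was left without it. Over 7 conditions the contrast was 0.17 to 0.70 in HAC 1-20, median 0.30, and -2.87 to -1.82 in HAC 4-65, median -2.58. Without the 5 scattered libraries the ranges were 0.17 to 0.70 and -3.38 to -2.08, the value of released HAC 4-65 cells being -3.38 in place of -1.82. T080 to T083 lay above the median in 4 of 4 cases in every condition of HAC 1-20 and in none of 4 in every condition of HAC 4-65, although T080 was itself the median code of released HAC 4-65 cells with the scattered libraries included.

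The read shares of the 2 lines differed too. T080 to T083 held 9.55% (9.30%, 9.81%) of CenU reads in the CENP-A library of untreated HAC 1-20 cells and 4.21% (4.10%, 4.32%) in that of HAC 4-65. In the H3K9me3 libraries the same codes held 1.78% (1.16%, 2.59%) in HAC 1-20 and 11.3% (11.1%, 11.4%) in HAC 4-65. The lines carry different numbers of codes, and the copies of each code, which the study estimated from genomic DNA, were not used here. Shares thus compare between lines only in order of size. T080 took 3.43% of CENP-A reads and 0.205% of H3K9me3 reads in HAC 1-20, against 0.478% and 2.22% in HAC 4-65. Over 7 conditions the CENP-A share of T080 was 2.75% to 3.43% (median 3.12%) in HAC 1-20 and 0.154% to 0.790% (median 0.564%) in HAC 4-65, without overlap. That of T081 was 1.71% to 2.84% (median 2.39%) in HAC 1-20 and 0.474% to 1.19% (median 0.592%) in HAC 4-65, also without overlap. T082 held 1.66% to 2.75% (median 2.63%) in HAC 1-20 and 0.802% to 1.82% (median 1.21%) in HAC 4-65, and T083 held 2.36% to 2.79% (median 2.65%) in HAC 1-20 and 0.885% to 2.28% (median 1.27%) in HAC 4-65. The ranges of T082 overlapped and those of T083 did not. How many of all codes carried by both lines were without overlap is not given here. T080 to T083 were singled out for their difference, so nothing is read from the overlaps. At the other end the order of the lines was turned round: T065 held 0.222% to 0.606% (median 0.347%) of CENP-A reads in HAC 1-20 and 1.18% to 2.16% (median 1.58%) in HAC 4-65.

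The 10 codes T069 to T079 all lay above the median density in untreated cells of both lines, but not in the same order, and 8 to 10 of them did so in the other conditions. The mean difference between HAC 1-20 and HAC 4-65 over T069 to T076 was -0.79, with single codes from -1.25 (T073) to -0.19 (T070). T075 had 1.13 (0.93, 1.33) in HAC 1-20 and 2.00 (1.94, 2.06) in HAC 4-65, the highest of the 15 codes there beside T071 at 1.96 (1.90, 2.03), whose interval overlapped. T071 itself had 0.92 (0.71, 1.13) in HAC 1-20. The highest code of untreated HAC 1-20 cells was T078 with 1.59 (1.24, 1.95), an interval that overlapped that of T080, and T078 had 0.92 (0.84, 0.99) in HAC 4-65. Its HAC 1-20 value rests on 2 H3K9me3 and 8 H3K36me2 reads. As medians over 7 conditions of HAC 1-20, T078 had 1.11, beside 1.16 for T080 and 1.13 for T075. T070 had 0.63 in HAC 1-20 and 0.81 in HAC 4-65, and the difference of -0.19 (-0.49, 0.12) did not exceed counting error. T073, at 0.30 and 1.54, and T074, at 0.77 and 1.74, were lower in HAC 1-20 than in HAC 4-65 in 7 of 7 conditions, as was T076 at 0.69 and 1.41. T077 had 0.99 in HAC 1-20 and 0.80 in HAC 4-65, a difference of 0.19 (-0.07, 0.44). T079 was close to the median in both, with 0.32 (0.16, 0.47) and 0.35 (0.29, 0.41), a difference of -0.03 (-0.20, 0.14). It stayed above the median in 7 of 7 conditions of HAC 1-20 and in 3 of 7 of HAC 4-65, or 2 of 7 without the scattered libraries. From T079 to its neighbour T080 the density step was 0.99 (0.67, 1.32) in HAC 1-20 and -1.84 (-1.97, -1.71) in HAC 4-65. In released HAC 4-65 cells this step turned positive at 1.41, and without the 3 scattered libraries T080 and T079 had -1.89 and -0.75 there.

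The marks on the CENP-A poor codes differed from those on the dense codes in a like way at both ends. The level of a mark is its log2 reads minus the mean of the 6 marks, centred on the carried codes. A low H3K9me3 level thus raises the levels of the other marks by construction. H3K9me3, the heterochromatin mark, was lower on T069 to T076 than on T065 to T067 at -1.57 in untreated HAC 1-20 cells and -0.83 in HAC 4-65 (T065 alone), and the sign was the same in 7 of 7 conditions of each line. H4K20me1 was higher by 2.09 in HAC 1-20 and by 2.12 in HAC 4-65, again in 7 of 7 conditions of each. H3K36me2 was lower, at -1.48 in HAC 1-20 and -1.31 in HAC 4-65, in 7 of 7 conditions of each.

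For T080 to T083 against T069 to T076 the marks split by line. The H3K9me3 contrast was -0.59 in untreated HAC 1-20 cells and 1.30 in HAC 4-65, and spanned -1.15 to -0.36 and 1.08 to 2.83 over the conditions. In HAC 1-20 the -0.36 came from released cells, and the span was -1.15 to -0.59 over the 6 conditions with no scattered library. H4K20me1 gave 0.14 in HAC 1-20, with a span of -0.16 to 0.70 that crossed 0, and -2.37 in HAC 4-65, with a span of -4.01 to -1.31. The extremes of 2.83 and -4.01 came from released HAC 4-65 cells, and over the 5 conditions of that line with no scattered library the spans were 1.08 to 1.77 for H3K9me3 and -3.11 to -1.31 for H4K20me1. H4K8ac was higher by 0.14 in HAC 1-20 (0.04 to 0.42 over the conditions, or 0.10 to 0.42 with no scattered library) and lower, at -0.73, in HAC 4-65 (-1.41 to -0.09, or -0.88 to -0.09 with no scattered library). H3K36me2 was at -0.28 in HAC 1-20 with 1 of 7 conditions above 0, the released cells with their scattered library, and 0 of the 6 others. It was at 1.31 in HAC 4-65 with 7 of 7 above 0. H3K4me2 contrasts were 0.05 in HAC 1-20 and 0.36 in HAC 4-65, and both crossed 0 over the conditions, in HAC 4-65 with siHJURP cells alone, at -0.07. The H3K4me2 library of those cells held only 5590 matched reads, and their scattered H3K14ac library enters the mean of the marks. Where no library scattered, the H3K4me2 contrast of HAC 4-65 was above 0 in 5 of 5 conditions, lowest 0.26 and highest 0.58. That of HAC 1-20 still crossed 0, with 5 of 6 conditions above. H3K14ac contrasts crossed 0 in both lines, also where no library scattered, and were 0.53 and 0.12 in untreated cells.

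In single codes the levels of H4K20me1 and H3K9me3 differed between the lines in opposite directions, though the levels of a code are not independent. T080 had an H4K20me1 level of 0.60 and an H3K9me3 level of -2.41 in HAC 1-20, against -1.94 and 0.76 in HAC 4-65. T081 had 0.84 and -1.59 in HAC 1-20, against -1.22 and 0.46 in HAC 4-65. The H3K9me3 values of HAC 1-20 rest on 3 reads for each of these codes, so the ratios over the deeper conditions carry more weight.

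Ratios between 2 antibodies need no stand-in for copy number, since copies cancel within a code. CENP-A over H3K9me3 on T080 to T083 minus T069 to T076 was 0.89 (0.17, 1.60) in HAC 1-20 and -4.07 (-4.15, -4.00) in HAC 4-65, and spanned 0.77 to 1.58 and -4.65 to -3.79 over 7 conditions. H4K20me1 over H3K9me3 gave 0.73 (0.01, 1.46) and -3.67 (-3.77, -3.58), spanning 0.63 to 1.58 in HAC 1-20 and -6.84 to -2.40 in HAC 4-65, or -4.87 to -2.40 over the 5 conditions of HAC 4-65 with no scattered library. Both ratios kept their sign in all 7 conditions of each line. CENP-A over H4K20me1 differed less, at 0.15 (0.03, 0.28) in HAC 1-20 and -0.40 (-0.49, -0.31) in HAC 4-65, and it was above 0 in 4 of 7 conditions of HAC 4-65, or 2 of the 5 with no scattered library. On T069 to T076 minus T065 to T067, CENP-A over H3K9me3 was 5.25 (4.83, 5.67) in HAC 1-20, a 38.0-fold difference, and 3.44 (3.34, 3.54) in HAC 4-65, a 10.8-fold difference.

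Density in untreated cells ran with mark ratios from separate libraries. Over the 17 carried codes of HAC 1-20, Pearson r between untreated density and H4K20me1 over H3K9me3 in siControl cells was 0.93, and it was 0.88 over the 44 other carried codes. In HAC 4-65 the values were 0.95 over 15 codes and 0.90 over 60 others. For H3K4me2 over H3K14ac, r was -0.02 in HAC 1-20 and -0.31 in HAC 4-65. Codes within a line share libraries and copy number, and density contains each mark with a negative sign. Log2 read share and density had an r of -0.55 in HAC 1-20 and -0.77 in HAC 4-65. Codes with many reads over all antibodies thus tended to be CENP-A poor. The copy numbers that the study estimated were not used, so copy number could not be told apart from mark content here.

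The same codes did not take the same state in the 2 lines over the whole run. Over all 18 codes the density of HAC 1-20 and HAC 4-65 in untreated cells had a Pearson r of 0.53 and a Spearman rho of 0.30. Over the 15 codes carried by both, r was 0.26, and without T065 it was -0.14. Over T070 to T083 it was -0.15, and over T069 to T079 (10 codes) it was 0.33. The 12 other shared codes had an r of 0.73, and the difference between the sets was not tested. The median absolute difference between lines was 0.97 on the 15 codes and 0.32 on the 12 others. In the remaining 6 conditions, r over the 15 codes was -0.01 to 0.32 and r over the 12 others was 0.09 to 0.61, and in siKAT7 cells it was higher on the 15 codes (0.24) than on the 12 others (0.09). Without the scattered libraries it was 0.04 on the 15 codes and 0.55 on the 12 others in released cells, and 0.22 and 0.20 in siHJURP cells. Of the 21 ratios between antibodies in untreated cells, 0 had an r above 0.5 over the 15 codes and 6 did over the 12 others. The highest over the 15 codes was H4K8ac over H4K20me1 with 0.49 and the lowest was H3K4me2 over H3K9me3 with -0.18.

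Within a line, T065 to T067 set much of the likeness between conditions in HAC 1-20. Density in each other condition against untreated cells had a Pearson r of 0.95 to 0.98 over the 17 codes of HAC 1-20, but the Spearman rho was 0.67 to 0.88, and without T065 to T067 the Pearson r was 0.59 to 0.83 over 14 codes. In HAC 4-65 r was 0.92 to 0.96 over 15 codes, apart from 0.73 in released cells, where 3 of 6 mark libraries scattered and r was 0.92 without them. The Spearman rho in HAC 4-65 was 0.78 to 0.90, and without T065 the Pearson r was 0.72 to 0.96 over 14 codes. The step from T065 to T069 up to T070 to T083 was smallest in siRNA treated HAC 1-20 cells, at 2.19 (1.66, 2.72) for siKAT7 and 2.36 (2.25, 2.48) for siHJURP, beside 2.88 (2.59, 3.16) for siControl. In HAC 4-65 it was 1.61 (1.24, 1.99) for siKAT7 and 1.95 (0.70, 3.20) for siHJURP, beside 1.10 (-0.31, 2.51) for siControl. These steps come from single libraries and nothing is read from their differences. In HAC 4-65, 3 codes of the lower block were not carried. With thymidine the step was 2.79 and 0.97 in HAC 1-20 and HAC 4-65, with colcemid 3.14 and 1.81, and after release 2.93 and 1.87. Without the scattered libraries the released cells had 3.09 in HAC 1-20 and 1.82 in HAC 4-65, and siHJURP HAC 4-65 cells had 1.70.

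CENP-A reads relative to NCU reads were lower with colcemid than with thymidine and higher after release, on these codes and on the other carried codes. Changes between conditions are log2 ratios of reads plus 0.5 over NCU reads, averaged over the 18 codes, and a change on NCU would move them too. Colcemid over thymidine gave -0.88 (-0.95, -0.81) in HAC 1-20 and -0.81 (-1.25, -0.37) in HAC 4-65. The other carried codes averaged -1.15 and -0.81, so relative to them the sign turned to 0.26 in HAC 1-20. Release over colcemid gave 0.36 (0.30, 0.41) and 0.32 (0.13, 0.50), beside 0.35 and 0.23 on the other codes. As a yardstick, siControl over untreated cells, between which no difference was intended, gave -0.62 (-0.72, -0.52) and -0.84 (-1.29, -0.39). The colcemid values were thus close to the yardstick in size. In HAC 1-20 none of 17 codes was at least 2-fold above or below the other codes, beside 3.77% and 17.0% of all carried codes. After release 2 of 15 codes of HAC 4-65 were at least 2-fold above, beside 5.26%, with T082 highest at 1.29. The thymidine value of HAC 4-65 rests on 642 reads over the 15 carried codes.

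H4K20me1 showed the larger changes over the cell cycle, and the codes did not share them evenly. Its mean over the carried codes in colcemid over thymidine was -2.81 (-2.84, -2.78) in HAC 1-20 and -2.82 (-2.87, -2.78) in HAC 4-65, beside -2.53 and -2.40 on the other codes and 0.49 and 0.15 in the yardstick. All 17 and all 15 codes were lower with colcemid, and the other codes were lower on average too. The share of the other codes that were lower is not given, so nothing particular to these codes is read from that count. Measured against the mean of the other carried codes, T065, T066 and T067 were higher in HAC 1-20 by 2.25, 1.80 and 1.29. T065 in HAC 1-20 gave 1481 reads with colcemid and 511 with thymidine, and T077, the lowest, gave 683 and 3547 reads, a relative change of -1.66. In HAC 4-65, T080 to T083 had a relative mean of 1.29, while in HAC 1-20 the same 4 codes were at -1.08. T081 gave 1852 reads with colcemid and 276 with thymidine in HAC 4-65, a relative change of 2.04, and 636 and 3262 reads in HAC 1-20, a relative change of -1.64. T074, a dense code in both, was at -0.99 in HAC 1-20 and -1.72 in HAC 4-65. T069 of HAC 1-20, near the median in density, was at 0.87. Among the CENP-A poor codes of HAC 4-65, T065 at -0.12 and T083 at 0.09 lay close to the other codes.

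Counts of codes past 2-fold were near the share over all carried codes, and nothing is read from them. Of 17 codes with at least 100 reads in both HAC 1-20 libraries, 3 were at least 2-fold above the other codes, beside 15.8% of all carried CenU codes so covered, and 5 were at least 2-fold below, beside 21.1%. In HAC 4-65, 2 of 14 codes were above, beside 22.1%, and 7 of 14 were below, beside 42.6%. After release H4K20me1 over colcemid averaged 1.97 (1.94, 1.99) in HAC 1-20, beside 1.51 on the other codes. T065 to T067 were at -1.27 relative to the others and T080 to T083 at 1.00. This comparison shares the colcemid libraries with colcemid over thymidine. Of 17 codes, 4 were at least 2-fold above, beside 13.6%, with T081 highest at 1.90, and 2 were at least 2-fold below, beside 11.9%, with T066 lowest at -2.15. The release value of HAC 4-65, 1.39 (1.21, 1.57), rests on one of the 5 scattered libraries and is not read further; T080 to T083 were at -2.96 relative to the others there.

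H3K9me3 was higher after both siRNA treatments in both lines. siKAT7 and siHJURP share the siControl libraries, so their values are side by side and not independent. siKAT7 over siControl averaged 0.61 (0.56, 0.67) in HAC 1-20 and 1.13 (1.09, 1.17) in HAC 4-65, beside 0.29 and 1.00 on the other codes. siHJURP over siControl averaged 0.91 (0.86, 0.96) and 1.22 (1.18, 1.25), beside 0.47 and 1.05. All 17 codes of HAC 1-20 and all 15 of HAC 4-65 were above 0 in each comparison, and the yardstick was 0.35 and 0.44. The other codes rose on average too. Their share above 0 is not given, so nothing particular to these codes is read from that count. In HAC 1-20 the change after siHJURP was unequal along the run, with T065 to T067 at -0.19 and T080 to T083 at 0.78 relative to the other codes. T080 gave 269 reads with siHJURP and 149 with siControl in HAC 1-20, a relative change of 1.22, and T075 gave 237 and 124, a relative change of 1.30. These were the 2 codes of 17 past 2-fold, beside 11.7% of all carried codes. In HAC 4-65, T080 to T083 were at -0.07 and none of 15 codes passed 2-fold, beside 0.0%.

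H3K36me2 was also higher after both siRNA treatments in HAC 1-20. siHJURP over siControl averaged 0.74 (0.71, 0.76), beside 0.23 on the other codes, and siKAT7 over siControl 0.86 (0.82, 0.90), beside 0.43. Relative to the others T080 to T083 were at 0.97 after siHJURP and T065 to T067 at -0.54. The 5 codes past 2-fold after siHJURP were T074, T075, T077, T080 and T081, of 17, beside 18.0%. T077 gave 3245 reads with siHJURP and 932 with siControl, a relative change of 1.45. In HAC 4-65 the same comparison averaged 0.80 (0.78, 0.82), beside 0.62 on the other codes, with none of 15 past 2-fold, beside 0.0%.

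CENP-A values with siRNA depended on what they were scaled by. The study scaled reads by recovery from quantitative PCR and reported lower CENP-A in both lines after either siRNA. On the CENP-A dense regions it reported falls of H4K20me1, H4K8ac and H3K4me2 too. No recovery enters the values here, so a value above 0 is not a gain of CENP-A or of a mark. Over NCU reads, siHJURP over siControl averaged 0.43 (0.34, 0.52) in HAC 1-20 and 0.36 (-0.22, 0.93) in HAC 4-65, and siKAT7 over siControl 0.62 (0.41, 0.83) and 0.07 (-0.39, 0.53). T066 to T068, not carried by HAC 4-65, enter its means, and over its 15 carried codes the values were 0.64 for siHJURP and 0.35 for siKAT7. Relative to the other carried codes, the carried codes among the 18 stood at -0.27 and 0.44 for siHJURP and at -0.01 and 0.05 for siKAT7. In HAC 1-20 after siHJURP, T065 was highest at 0.86 and T069 lowest at -1.30, the only 1 of 17 codes at least 2-fold below, beside 3.77%. The HAC 4-65 values rest on 354 reads in the siControl library, and with untreated cells in place of siControl the siHJURP values were -0.19 in HAC 1-20 and -0.48 in HAC 4-65. H4K20me1 after siHJURP differed between the lines, at -0.84 (-0.86, -0.82) in HAC 1-20 and 1.33 (1.30, 1.35) in HAC 4-65, beside -0.68 and 0.34 on the other codes. In HAC 4-65, 7 of 15 codes were at least 2-fold above the others, beside 16.7%, led by T080 with 1109 reads after siHJURP and 398 in siControl cells, a relative change of 2.16, while its neighbour T081 was lowest at -0.44. In HAC 1-20, none of 17 was, beside 1.67%.

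H4K8ac and H3K4me2 had opposite signs in the 2 lines after siKAT7, though nothing is read from the HAC 4-65 values. H4K8ac over siControl averaged -0.62 (-0.65, -0.58) in HAC 1-20 and 0.46 (0.40, 0.51) in HAC 4-65 after siKAT7, and -0.81 (-0.84, -0.78) and 0.48 (0.44, 0.53) after siHJURP. The other carried codes stood at -0.45 and 0.46 after siKAT7 and at -0.48 and -0.06 after siHJURP, and the yardstick was 0.37 in HAC 1-20 and 0.49 in HAC 4-65. The HAC 4-65 values of H4K8ac on these codes did not exceed that yardstick. They hold no recovery from quantitative PCR, by which the study reported lower H4K8ac on the CENP-A dense regions. H3K4me2 averaged -0.31 (-0.34, -0.28) in HAC 1-20 and 0.29 (0.20, 0.38) in HAC 4-65 after siKAT7, beside -0.16 and 0.32 on the other codes. No yardstick is given for H3K4me2, so its signs are a description. H3K14ac, a mark that KAT7 is known to write, averaged -0.35 (-0.38, -0.31) in HAC 1-20 and 0.07 (0.02, 0.12) in HAC 4-65 after siKAT7, beside -0.86 and -0.04 on the other codes and a yardstick of 0.53 and 0.36.

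One code outside the 18 bears on the gap at T072. T001 was carried in both lines with a median share of 1.68% of CenU reads in HAC 1-20 and 1.67% in HAC 4-65, whereas T072 was carried in neither. The listed sequence of T001 is found in the primer that made unit 072, and that of T072 in the primer of unit 001, while 124 of 128 codes lie in the primer of their own number. In the order of the variable bases, the listed T001 falls between T071 and T073.
T001: ggggaaaaTAcccTCtttTCggg
T072: ggggaaaaAAcccAAtttAAggg
T001 had a density of 0.12 (-0.12, 0.36) in HAC 1-20 and -0.29 (-0.38, -0.20) in HAC 4-65, close to the median of the carried codes in each. Which unit its reads came from is not settled by the files.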

How the data were processed

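The authors trimmed reads of the competitive PCR product with cutadapt 4.0, matched them to a list of position codes with Bowtie and deposited, per library, the count of matched reads per code from SAMtools; mismatch settings are not given in the sources used here. These counts are raw and not normalised. Of all reads, 5.98% to 12.7% were unmatched and were left out. Groups came from the sample labels: HAC line, antibody and treatment, with 1 library each. The 18 codes, the blocks within them and the tests were chosen with earlier results of these data known.

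Values were computed with Python 3.11, numpy 2.4.6 and pandas 2.3.3. Densities used a pseudocount of 0.5, changes were scaled by NCU reads, and a code was called changed at 2-fold against the mean of the other carried CenU codes, given 100 or more reads in each library of the pair. Named for each measure were the highest and lowest code of a line, the codes beside the largest step between neighbours, and the highest and lowest code of each comparison of conditions. T080 to T083, T069 to T076 and codes such as T071, T074, T079 and T082 were singled out after their values had been seen. Intervals of log2 values came from the variance of the counts, and those of shares were exact binomial (Clopper-Pearson) 95% intervals. The calculation was tested on simulated data with counting error alone, so the scatter between real libraries was not part of that test. Alternatives were another pseudocount, other references, each mark left out, medians, summed reads, other blocks and other libraries. Sequences were read from the supplementary list of codes of the study. 4 libraries of other HAC lines were not used.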

Additional observations from a re-analysis of the deposited data

Results flagged for a closer look

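The contrast between T080 to T083 and T069 to T076 had opposite signs in the 2 lines in every condition, for 6 measures. The difference between lines was not tested, since each group was 1 library and the block was drawn after the values had been seen. As medians over 7 conditions, CENP-A density gave 0.30 in HAC 1-20 and -2.58 in HAC 4-65. H4K8ac gave 0.23 in HAC 1-20 and -0.86 in HAC 4-65, and H3K9me3 gave -0.88 in HAC 1-20 and 1.46 in HAC 4-65. Between antibodies, H4K20me1 over H3K9me3 gave 1.00 and -4.06, H4K8ac over H3K9me3 gave 1.24 and -2.46, and CENP-A over H3K9me3 gave 1.08 and -4.07, in HAC 1-20 and HAC 4-65 in that order. These measures share libraries and are not independent of each other.

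T001, a code outside the comparisons, held a median of 1.68% of CenU reads in HAC 1-20 and 1.67% in HAC 4-65, far above the shares of codes not carried, and its listed sequence matches the primer of unit 072.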

How the results depend on the processing

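The density step of 3.07 in HAC 1-20 stayed positive under every alternative run. It was 2.88 in siControl libraries, 3.31 without H4K8ac, 3.38 without H4K20me1, 2.83 without H3K36me2 and 2.69 without H3K9me3, 3.42 as a median, 3.64 parted between T067 and T068, and 3.83 with T069 on the upper side. The step of 1.50 in HAC 4-65 stayed positive too, at 1.10 in siControl libraries, 1.30 without H3K9me3, 2.03 as a median, 1.09 with summed reads, 1.85 parted between T067 and T068, 2.60 without T077 to T083, and 0.78 with carried codes alone or with codes of at least 100 reads. The density correlation of 0.53 turned to -0.15 over T070 to T083.
Without a stand-in for copy number the contrast of T080 to T083 shrank to 0.0407 in HAC 1-20, close to 0, and to -1.45 in HAC 4-65. The other alternatives run gave -3.25 to -2.33 in HAC 4-65 where they moved it.
CENP-A changes depended on the reference. With all CenU reads, colcemid over thymidine became 0.19 and 0.0902, release over colcemid -0.0659 and -0.0805, siKAT7 0.0748 and -0.43, and siHJURP -0.0447 and -0.13, in HAC 1-20 and HAC 4-65. With the other carried codes, colcemid became 0.26 and -0.0021, release 0.0075 and 0.0860, siKAT7 0.0787 and -0.23, and siHJURP -0.23 in HAC 1-20. With untreated cells as reference, siKAT7 gave 0.0038 and -0.77 and siHJURP -0.19 and -0.48. A pseudocount of 5 gave -1.41 for colcemid and -0.61 for siKAT7 in HAC 4-65, and summed reads gave 0.43 for release in HAC 1-20.
A minimum of 100 reads per library gave no value for the correlation (0 codes), for the step of HAC 1-20, or for the colcemid, siKAT7 and siHJURP changes of CENP-A in HAC 4-65. In all, 72 of 121 alternatives left a value within its error, 34 moved it and 15 turned its sign. The causes were not tested. These values are limited by single libraries and by CENP-A depth in HAC 4-65. No paired analysis was possible because each group held 1 library. Alternatives by carried codes, by T069 on the upper side and for the T080 to T083 contrast were chosen after seeing the data.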
